A study of Homo sapiens with 6 samples.

Results

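The Hippo pathway was described through 10 genes of LM3 cells, an established human hepatocellular carcinoma (HCC) line, after knockdown of ZNF706, a zinc finger gene. The genes were the transcriptional coactivators YAP1 and WWTR1 (which encodes TAZ), the transcription factors TEAD1, TEAD2, TEAD3 and TEAD4, the kinases LATS1 and LATS2, and the target genes AMOTL2 and ANKRD1. They were taken from the deposited table by gene symbol, as 10 of its 33007 genes, and all 10 were among the 18390 genes that passed the filter on low counts. The comparison was of 3 vector control libraries with 3 libraries of stable ZNF706 knockdown by a lentiviral short hairpin RNA under puromycin selection, all of them labelled wild type. The labels do not say which hairpin was used or whether the replicates were separate cultures, so p-values measure the spread between these libraries, which may be technical. Total counts were between 62684076 and 64713764 in the controls and between 65861994 and 69057423 in the knockdown libraries.

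In the Hippo pathway, the kinases encoded by STK3 and STK4, with the scaffold SAV1, activate LATS1 and LATS2, which act with MOB1 proteins and phosphorylate YAP and TAZ so that these are held in the cytoplasm or degraded. When the kinases are inactive, YAP and TAZ enter the nucleus, bind TEAD proteins and switch on genes for growth and for the matrix, among them CCN1, CCN2, ANKRD1 and AMOTL2. In liver the pathway is known for its control of organ size, and active YAP is common in HCC. LATS2 and AMOTL2 act back on the pathway, as a kinase and as a protein that binds and retains YAP.

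TEAD proteins bind DNA at a short site whose core is CATTCC, and the bases before the start of 3 genes are shown here because they hold that core. The 250 bases upstream of each start were taken from RefSeq (build GRCh38.p14), printed 5′ to 3′ on the strand of the gene, with the core in capitals as GGAATG, its form on the other strand. The windows are chr10:90921088-90921337 on the minus strand for ANKRD1, chr6:131951373-131951622 on the minus strand for CCN2, and chr11:102110197-102110446 on the plus strand for YAP1.
ANKRD1: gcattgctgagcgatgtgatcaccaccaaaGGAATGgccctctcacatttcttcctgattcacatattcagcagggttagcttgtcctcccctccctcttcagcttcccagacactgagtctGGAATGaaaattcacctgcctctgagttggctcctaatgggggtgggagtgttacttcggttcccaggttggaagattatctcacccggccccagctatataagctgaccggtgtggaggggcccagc
CCN2: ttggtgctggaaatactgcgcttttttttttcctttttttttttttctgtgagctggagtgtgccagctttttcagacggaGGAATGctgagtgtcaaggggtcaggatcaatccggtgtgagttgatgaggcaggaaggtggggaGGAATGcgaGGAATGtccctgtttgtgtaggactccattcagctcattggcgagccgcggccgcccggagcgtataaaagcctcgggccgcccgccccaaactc
YAP1: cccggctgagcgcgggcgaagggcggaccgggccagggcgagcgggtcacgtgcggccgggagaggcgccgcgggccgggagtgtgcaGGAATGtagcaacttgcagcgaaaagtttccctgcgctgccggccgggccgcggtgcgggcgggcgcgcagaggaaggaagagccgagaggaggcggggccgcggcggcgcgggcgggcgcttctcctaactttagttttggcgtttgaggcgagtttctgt
ANKRD1, which encodes a cardiac ankyrin repeat protein, had 2 such cores, starting 220 and 128 bases before the gene start. CCN2, which encodes the connective tissue growth factor, had 3, and YAP1 had 1, at 162 bases before its start. The search covered both strands, and 11.89% of 35116 RefSeq windows of the same length held the core. For each gene named here only the first window listed under its symbol was used, so any further starts were not searched. Of the 10 genes, 8 were matched to a window by symbol, and the core was in 2 of these, ANKRD1 and YAP1. It was not in the windows of WWTR1, TEAD2, TEAD3, LATS1, LATS2 and AMOTL2, of which those of WWTR1, TEAD2, LATS1 and AMOTL2 belong to a start that differs from the gene end in the deposited table. A match is a description of these letters and was not tested for binding.

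ZNF706 (ENSG00000120963, GRCh38 chromosome 8, 101177878 to 101205682, minus strand), the knockdown's target, was lower in every knockdown library. Its counts were 3211, 3504 and 3357 in the controls and 2350, 2068 and 2298 after knockdown. Scaled with the trimmed mean of M values (TMM) to counts per 1000000 (CPM), its level went from 53.9 ± 1.76 to 32.4 ± 1.39 (mean ± SD, n = 3 each here and below). The fitted log2 fold change was -0.73 (SE 0.050, adjusted p = 3.7e-05, by the quasi-likelihood test of edgeR, Benjamini-Hochberg adjusted over all genes tested), which leaves 60.1% of the control level.

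Of the 10 Hippo genes, WWTR1, LATS2, AMOTL2 and YAP1 fell in the knockdown libraries, no gene of the 10 rose by the test, and none of the 4 TEAD genes passed it. The threshold was an adjusted p below 0.05 in the same edgeR test. The 4 that fell are 40% of the 10, beside 12.4% of all tested genes called lower, 10.4% called higher and 22.8% called in either direction. In 6 of the 10 genes the control and knockdown libraries did not overlap in CPM, 5 of them lower and 1 higher after knockdown, beside 39.4% of all tested genes without overlap. In deposited FPKM, a comparison added after seeing the data, LATS1 overlapped (lowest control 6.93, highest knockdown 7.10) and TEAD3 did not (highest control 2.14, lowest knockdown 2.17). The 39.4% is for CPM and is no measure of overlap in FPKM. The median log2 fold change of the 10 was -0.09, against 0.01 for all tested genes. Scaled by library size alone, 3 of the 10 were called lower, and the split of all genes turned from 1906 higher and 2286 lower to 2742 higher and 1518 lower. With so few genes, these shares are a description and were not tested as a group. In bulk RNA from cultured cells, fewer cells that express a gene cannot be told apart from less RNA per cell.

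**Figure D1:**
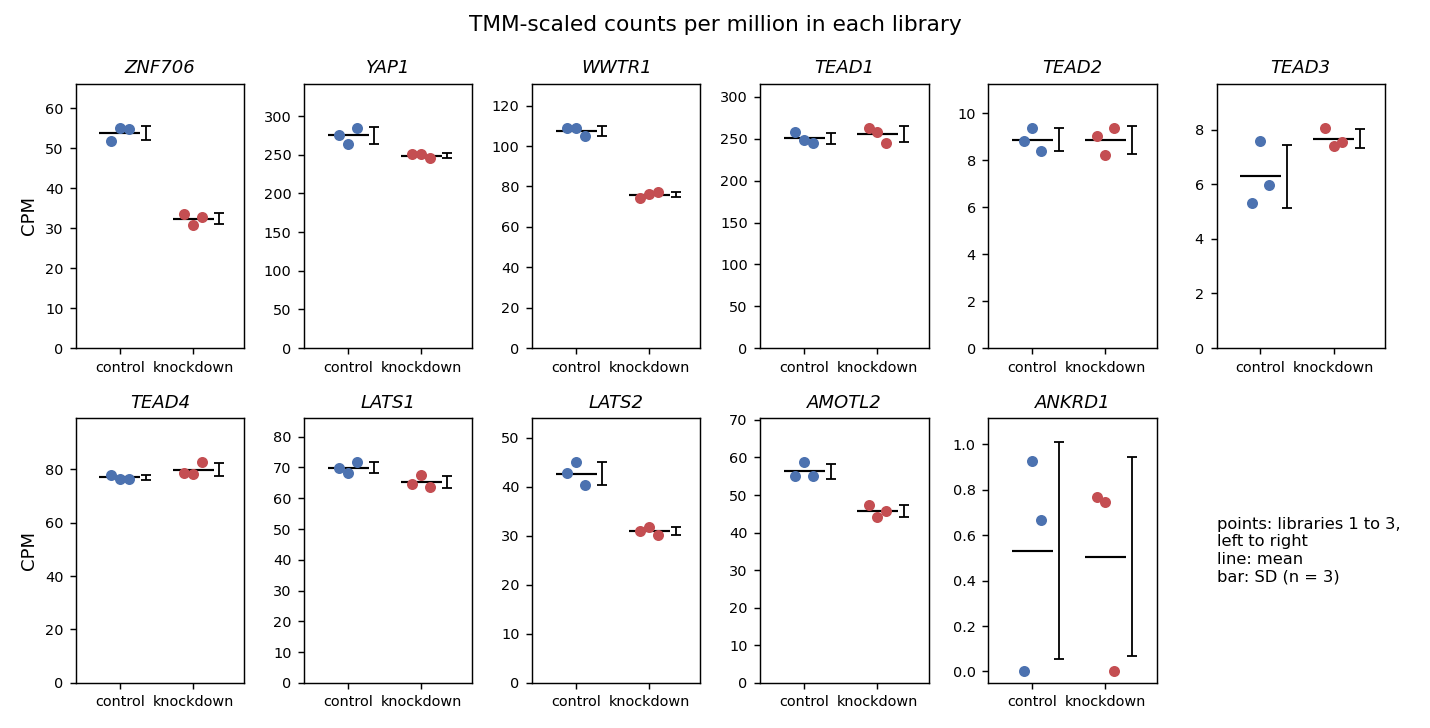
TMM-scaled CPM (vertical axes, from 0 except for ANKRD1) of ZNF706 and the 10 Hippo genes in each control (blue) and knockdown (red) library, with the group mean (line) and SD (bar, n = 3). WWTR1, LATS2 and AMOTL2 have every knockdown library below every control library, TEAD1 and TEAD2 overlap between the groups, TEAD3 has control replicate 2 among the knockdown libraries, and ANKRD1 is at 0 in control replicate 1 and knockdown replicate 3.

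WWTR1 (ENSG00000018408, chromosome 3, 149517235 to 149736714, minus strand) fell the most on the log2 scale of those of the 10 Hippo genes that passed the test. Its product TAZ is a coactivator of TEAD proteins and a paralogue of YAP. WWTR1 had 109, 109 and 105 CPM in the control libraries and 74.5, 76.2 and 77.1 CPM in the knockdown libraries. The groups lay far apart compared with the spread within each, with the lowest control well above the highest knockdown library. The means were 108 ± 2.43 and 75.9 ± 1.31 CPM, and the fitted log2 fold change was -0.50 (SE 0.035, adjusted p = 4.2e-05, edgeR). WWTR1 thus fell by 29.4%, with a 95% interval of -33.2% to -25.5%. Over 18 other settings of the analysis the log2 fold change of WWTR1 stayed between -0.52 and -0.41 and passed each threshold. An antisense gene, WWTR1-AS1, overlaps WWTR1 on the opposite strand with a mean of 67.7 counts, and since the handling of strand in counting is not given in the sources used here, reads of the pair cannot be told apart.

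YAP1 (ENSG00000137693, chromosome 11, 102110447 to 102233424, plus strand) fell by less. It encodes YAP, the coactivator that LATS kinases restrain. YAP1 had 276, 264 and 285 CPM in the controls and 251, 251 and 245 CPM after knockdown. The groups did not overlap, but the lowest control library was nearer to the knockdown libraries than to the highest control. The means were 275 ± 10.4 and 249 ± 3.18 CPM, with a fitted log2 fold change of -0.14 (SE 0.036, adjusted p = 0.018, edgeR). YAP1 thus fell by 9.46% (95% interval -14.4% to -4.26%). The call was lost when the libraries were scaled by total count alone (log2 fold change -0.09, adjusted p = 0.10). It was also lost without control replicate 3 (adjusted p = 0.062), without knockdown replicate 2 (0.067) and without knockdown replicate 3 (0.052), all by edgeR. AP001527, a gene on the opposite strand within YAP1, had a mean of 138.5 counts.

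The fall of WWTR1 and that of YAP1 were set against each other as the share of YAP1 in the summed level per gene length, as deposited FPKM (fragments scaled by gene length and library size). YAP1 made up 77.0%, 76.3% and 78.3% of the sum of YAP1 and WWTR1 in the controls and 81.7%, 81.3% and 80.8% after knockdown. Every knockdown library was above every control library. The share rose from 77.2% ± 1.02 to 81.3% ± 0.441, by 4.11 percentage points, and the exact permutation test gave p = 0.1 (two-sided), the smallest that 3 against 3 libraries allow, or 0.5 after adjustment over the 5 shares tested. The summed FPKM of YAP1 and WWTR1 was 48.7 ± 1.13 in the controls and 43.3 ± 0.445 after knockdown (exact permutation p = 0.1).

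The TEAD genes encode the DNA-binding partners of YAP and TAZ. TEAD1 (chromosome 11, 12674421 to 12944737, plus strand) had 258, 249 and 245 CPM in the controls and 263, 258 and 245 CPM after knockdown, so the groups overlapped. Its log2 fold change was 0.03 (SE 0.038, adjusted p = 0.65, edgeR), with a 95% interval from -3.80% to 8.16%. The TEAD1 value was 0.08 both with library size alone and with the GC trend removed. It was 0.0072 without knockdown replicate 1 and 0.058 without knockdown replicate 3, and passed in none of these. TEAD4 (chromosome 12, 2959330 to 3040676, plus strand) had 78.0, 76.4 and 76.5 CPM in the controls and 78.6, 78.1 and 82.6 CPM after knockdown. The TEAD4 groups did not overlap, by a narrow margin, and the fitted log2 fold change of 0.05 (SE 0.036, adjusted p = 0.36, edgeR, 95% interval -2.02% to 9.69%) did not pass. The TEAD4 value was 0.11 with library size alone, 0.027 without knockdown replicate 3 and -0.02 once the trend with GC content was removed.

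TEAD2 and TEAD3 were present at much lower levels. TEAD2 (chromosome 19, 49340595 to 49362457, minus strand) had 8.82, 9.38 and 8.41 CPM in the controls and 9.01, 8.21 and 9.37 CPM after knockdown. The TEAD2 means were 8.87 CPM in both groups, with a 95% interval of the change from -14.5% to 16.9%, and the sign of the fitted value changed with the setting. TEAD2 overlaps CD37, a gene on the opposite strand with a mean of 142 counts. TEAD3 (chromosome 6, 35473597 to 35497079, minus strand) had 5.32, 7.57 and 5.98 CPM in the controls and 8.07, 7.39 and 7.55 CPM after knockdown. Control replicate 2 lay among the knockdown libraries of TEAD3 and the other 2 controls lay below them. The log2 fold change of TEAD3 was 0.29 (SE 0.14, adjusted p = 0.18, edgeR; 95% interval -1.92% to 51.7%), and without control replicate 2 it was 0.44 with an adjusted p of 0.049. Without control replicate 1 it was 0.18 (adjusted p = 0.45), and 0.19 (adjusted p = 0.48) without control replicate 1 and knockdown replicate 3 together.

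The mix of TEAD transcripts was compared as shares of their summed FPKM, where the exact permutation test of 3 against 3 libraries cannot give a p below 0.1. TEAD4 made up 54.3% ± 0.513 in the controls and 54.4% ± 1.4 after knockdown. TEAD1 made up 37.6% ± 0.524 and 37.1% ± 1.49. TEAD2 stood at 4.75% ± 0.228 and 4.60% ± 0.269, and TEAD3 at 3.31% ± 0.619 and 3.90% ± 0.153, and the exact permutation p of the 4 shares was between 0.3 and 0.9. The difference in the TEAD3 share was 0.599 points and was 0.323 without control replicate 1 and 0.933 without control replicate 2. That of TEAD1 was -0.537 points and turned to 0.326 without knockdown replicate 3, and that of TEAD4 was 0.0940 and turned to -0.173 without control replicate 2 and -0.693 without knockdown replicate 3. TEAD4 and TEAD1 together thus made up most of the TEAD transcripts in both groups. The summed FPKM of the 4 TEAD genes was 53.7 ± 1.24 in the controls and 57.5 ± 0.512 after knockdown (exact permutation p = 0.1, the smallest possible). FPKM are scaled by library size alone, and divided by each library's TMM factor, a scaling added after seeing the data, the sums were 54.7 ± 0.875 and 56.4 ± 0.540. The difference between the groups in the TEAD sum was thus 3.77 FPKM as deposited and 1.699 FPKM after TMM scaling, still without overlap.

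LATS2 (chromosome 13, 20973036 to 21061586, minus strand), a kinase of YAP and TAZ and itself a target of YAP, fell. Its level was 42.9, 44.99 and 40.3 CPM in the controls and 31.1, 31.8 and 30.2 CPM after knockdown. The knockdown libraries of LATS2 lay close together and well below the lowest control. The means of 42.7 ± 2.34 and 31.0 ± 0.789 CPM gave a log2 fold change of -0.46 (SE 0.056, adjusted p = 0.00048, edgeR). LATS2 thus fell by 27.4% (95% interval -33.5% to -20.9%). Over the 18 other settings it lay between -0.51 and -0.35 and passed in each. LATS1 (chromosome 6, 149658153 to 149718101, minus strand), its paralogue, had 69.9, 68.2 and 71.6 CPM in the controls and 64.5, 67.4 and 63.8 CPM after knockdown. The LATS1 groups did not overlap in CPM, and the log2 fold change of -0.10 (SE 0.039, adjusted p = 0.096, edgeR; 95% interval -12.2% to -0.903%) did not pass after adjustment. The fitted value of LATS1 was -0.05 with library size alone, -0.05 and -0.04 with limma on FPKM, and -0.03 (adjusted p = 0.60, edgeR) with the GC trend removed. The summed FPKM of both kinases was 13.7 ± 0.275 and 11.8 ± 0.354 (exact permutation p = 0.1).

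AMOTL2 (chromosome 3, 134355874 to 134374594, minus strand) encodes an angiomotin-like junction protein that binds YAP and is itself a target of YAP and TEAD. AMOTL2 had 55.1, 58.7 and 55.1 CPM in the controls and 47.4, 44.1 and 45.6 CPM after knockdown. All 3 knockdown libraries were below all 3 controls. The means of 56.3 ± 2.07 and 45.7 ± 1.61 CPM gave a log2 fold change of -0.30 (SE 0.046, adjusted p = 0.0015, edgeR). AMOTL2 thus fell by 18.8% (95% interval -24.3% to -12.9%). It passed in the 18 other settings, between -0.35 and -0.22.

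**Figure D2:**
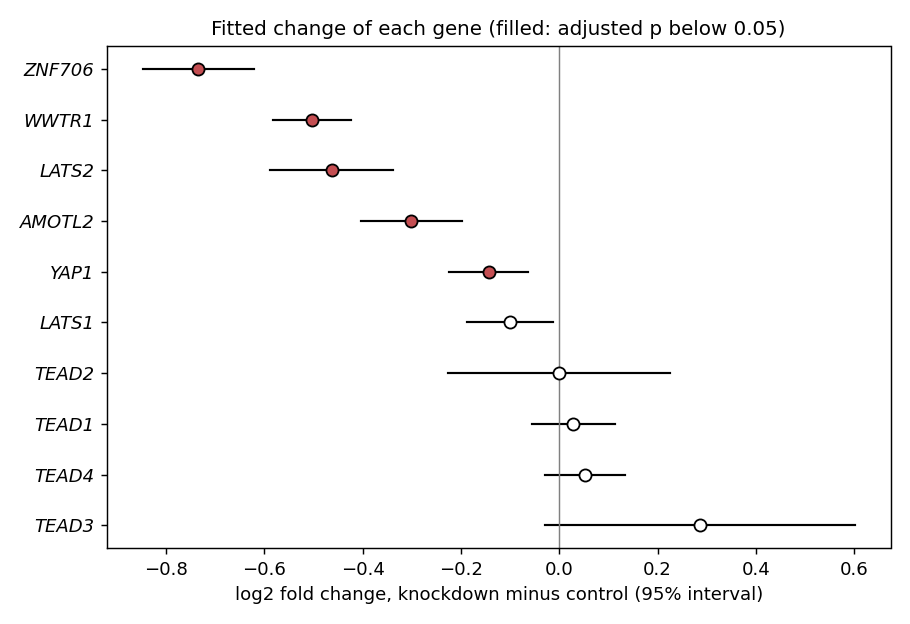
Fitted log2 fold change, knockdown minus control (horizontal axis), with its 95% interval (line) for ZNF706 and 9 Hippo genes, filled where the adjusted p was below 0.05. WWTR1, LATS2, AMOTL2 and YAP1 lie below 0 with filled points, and the TEAD genes have intervals that span 0, as does ANKRD1, which is left out because its interval runs from -2.87 to 2.72.

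ANKRD1 (chromosome 10, 90912096 to 90921087, minus strand), whose upstream window with 2 GGAATG cores is printed above, was barely present in LM3 cells. Its counts were 0, 59 and 41 in the controls and 54, 50 and 0 after knockdown. The libraries at 0 were control replicate 1 and knockdown replicate 3, so each group held libraries at 0 and libraries with at least 41 counts. The fitted log2 fold change of -0.08 had an SE of 1.25 (adjusted p = 0.98, edgeR), and a change of ANKRD1 was not detectable. A count of 0 allows up to 3 counts, or 0.0485 and 0.0429 CPM in these 2 libraries, from counting error only. Among 57 genes with at least 40 counts in at least 3 libraries and 0 in at least 1, ANKRD1 was the single gene with 0 in just these 2 libraries and at least 40 in the other 4. The search was for the pattern of ANKRD1 itself, made after its counts were seen, and is a description. The hepatocyte marker TTR was also at 0 in just these 2 libraries, but at 4 to 18 counts in the others was below the cut.

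The same libraries, set apart because ANKRD1 was at 0 in them, had the fewest counts of 4 of 8 hepatocyte markers. The other 4 markers did not share the pattern. How many of all tested genes are lowest in these libraries was not counted, so the 4 of 8 is a description. Albumin (ALB), the most abundant of the 8 markers listed, had 189, 899 and 882 counts in the controls and 587, 635 and 138 after knockdown. Transferrin (TF) had 37, 361 and 375 counts and then 234, 213 and 24. The fibrinogen chain gene FGB had 28, 117 and 152 counts and then 109, 105 and 14. Control replicate 1 and knockdown replicate 3 were thus lowest for these 3 and for TTR, which was at 0 in both. HNF4A was instead highest in control replicate 1, with 122, 30 and 64 counts in the controls and 35, 46 and 27 after knockdown. APOA1 (122, 150 and 217, then 0, 4 and 138 counts) and SERPINA1 (195, 286 and 336, then 116, 75 and 138) were highest of the knockdown libraries in replicate 3. APOB had 156, 266 and 304 counts and then 123, 158 and 127. Outside this list, the epithelial marker EPCAM was also lowest in the 2 libraries (8, 34 and 29, then 51, 74 and 6 counts), and the collagen gene COL1A2 was highest in them (117, 8 and 0, then 0, 0 and 119). The summed FPKM of the 8 hepatocyte markers was 3.37, 7.10 and 8.39 in the controls and 3.07, 3.44 and 2.64 after knockdown. Of the 8, 2 were called lower, SERPINA1 (log2 fold change -1.47) and APOB (-0.98), and none higher, beside 12.4% and 10.4% of all tested genes. The part of these libraries in the results was not tested beyond leaving them out. Without both, WWTR1, LATS2 and AMOTL2 were still called lower, and YAP1 was not (log2 fold change -0.13, adjusted p = 0.095, edgeR).

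**Figure D3:**
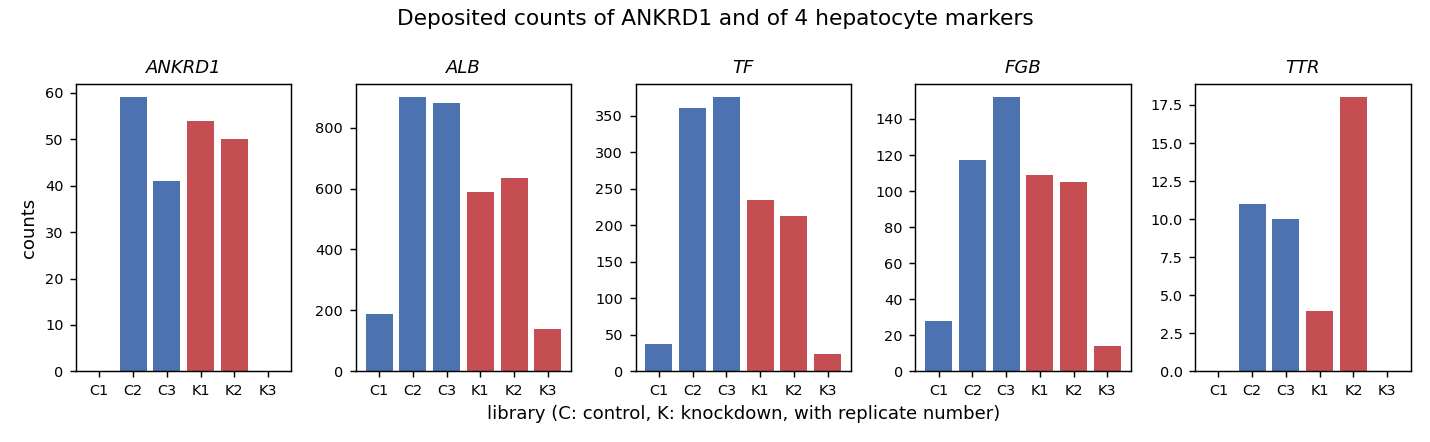
Deposited counts (vertical axes, from 0) of ANKRD1 and the hepatocyte markers ALB, TF, FGB and TTR in each library (C1 to C3 control in blue, K1 to K3 knockdown in red). C1 and K3 are the lowest libraries in every panel, at 0 for ANKRD1 and TTR and at 189 and 138 counts for ALB.

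Markers of other cell types were checked in the same way. The 5 epithelial markers summed to between 452 and 480 FPKM in all 6 libraries, led by the keratin genes KRT18 and KRT8, and none was called. Those 2 had log2 fold changes of -0.10 and 0.01. The less abundant KRT19 had 0.83 (adjusted p = 0.054), CDH1 0.59 (0.072) and EPCAM 0.75 (0.56), by edgeR. The leukocyte list was led by CD68 (1643 to 1669 counts in the controls, 2808 to 2940 after knockdown, called higher), while PTPRC, the gene of the pan-leukocyte antigen CD45, had 8, 8 and 0 counts and then 0 in all 3. In the fibroblast or stellate list 2 of 5 tested genes were called higher, COL1A1 (log2 fold change 0.20) and PDGFRB (0.68), beside 10.4% of all tested genes. LUM (-1.26), ACTA2 (-0.09) and DCN (-0.04) were not called. COL1A1 was the most abundant and COL1A2, given above, was at 0 in 3 libraries, with a summed FPKM of the list between 8.05 and 10.2. In the endothelial list 1 of 2 tested genes, CDH5 (log2 fold change -0.70), was called lower, beside 12.4% of all tested genes. PECAM1, the other tested gene, had 0.15 (adjusted p = 0.54, edgeR), and VWF had 0 to 20 counts. HNF4A, the factor that defines the hepatocyte lineage, had 27 to 122 counts. These hepatocyte genes were thus scarce in this liver tumour line, while the epithelial keratins KRT8 and KRT18 were abundant and KRT19, at 50 to 169 counts, was not.

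Per gene length, YAP1 was the most abundant of the 10 genes in both groups, at 37.6 ± 1.29 FPKM in the controls. TEAD4 followed at 29.2 ± 0.581, TEAD1 at 20.2 ± 0.693 and WWTR1 at 11.1 ± 0.342 FPKM. AMOTL2 (8.11 ± 0.307), LATS1 (7.10 ± 0.149) and LATS2 (6.57 ± 0.392) came next, then TEAD2 (2.55 ± 0.150), TEAD3 (1.77 ± 0.327) and ANKRD1 (0.253 ± 0.227 FPKM). In the controls no 2 neighbours in this order overlapped in their libraries' ranges, though the lowest library of LATS1 (6.93) was close to the highest of LATS2 (6.91 FPKM). After knockdown the order was the same but for LATS1 (6.85 ± 0.219) and AMOTL2 (6.81 ± 0.241 FPKM), which changed places and overlapped. WWTR1 stood at 8.10 ± 0.136 FPKM in the knockdown libraries, still above both.

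**Figure D4:**
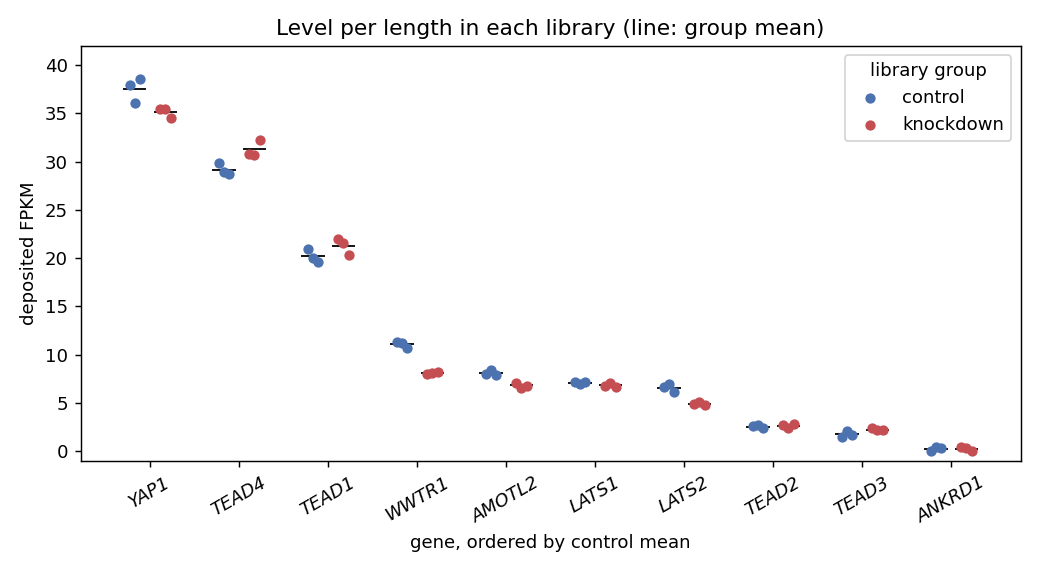
Deposited FPKM (vertical axis) of the 10 genes in each control (blue) and knockdown (red) library, ordered by the control mean, with group means as lines. YAP1, TEAD4 and TEAD1 lie at 19.59 FPKM or more in all libraries, WWTR1 falls from 11.1 to 8.10 FPKM, and ANKRD1 is near 0.

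Other genes of the pathway were counted by role, from 6 lists chosen by textbook function. Over the 6 lists, each gene counted once, 80 genes were tested, of which 23 (28.75%) were called lower and 9 (11.25%) higher, with a median log2 fold change of -0.04. Over all tested genes these shares were 12.4% and 10.4%, so the share called higher was near that of all genes. In the core kinase cascade 6 of 18 tested genes (33.3%) fell and none rose, with a median of -0.08. MOB1B and MOB1A, which encode the LATS cofactors, had log2 fold changes of -0.41 (SE 0.056, adjusted p = 0.00086) and -0.24 (0.035, 0.0013), and the scaffold SAV1 had -0.26 (0.045, 0.0028), all by edgeR. The upstream kinases TAOK1 (-0.37, SE 0.041) and MAP4K5 (-0.29, SE 0.036) fell too. The central kinases STK3 (-0.19, adjusted p = 0.11) and STK4 (-0.09, 0.15) and the tumour suppressor NF2 (-0.12, 0.10) did not pass, although their libraries did not overlap. With the GC trend removed NF2 was called (-0.16, adjusted p = 0.037) and STK3 was at -0.11, and with library size alone STK4 was at -0.03 and NF2 at -0.07, by edgeR.

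In the STRIPAK list, subunits of the phosphatase complex that inactivates STK3 and STK4, 6 of 11 (54.5%) fell, beside 12.4% of all tested genes, with a median of -0.16. SLMAP, which guides the complex to the kinases, and the striatin STRN were both at -0.31 on the log2 scale (adjusted p = 0.0011 and 0.0012, edgeR). The catalytic subunit PPP2CA had -0.21 (SE 0.033), STRN3 -0.21 (SE 0.061) and MOB4 -0.19 (SE 0.044). The call of STRN3 was lost without control replicate 1 (adjusted p = 0.053) or 3 (0.11) and without knockdown replicate 1 (0.094) or 3 (0.11), and that of MOB4 without knockdown replicate 2 (0.060), by edgeR. STRN3 also lost it with library size alone (0.086), with no filter (0.090), with limma on FPKM (0.084 and 0.085) and with the GC trend removed (0.098), and without control replicate 1 and knockdown replicate 3 together (0.13). MOB4 also lost it with library size alone (0.054) and without those 2 libraries (0.072), and its log2 fold change was -0.10 with the GC trend removed (adjusted p = 0.11). PPP2R1A, named after its value was seen as the single gene of the list called higher, had 0.11 (SE 0.033, adjusted p = 0.040, edgeR), and leaving out any library gave 0 genes of the list called higher.

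Among 20 tested upstream regulators, 4 (20%) were called lower and 4 (20%) higher, beside 12.4% and 10.4% of all tested genes, and the median was -0.01. The 4 higher were 1 without control replicate 2 or 3 or knockdown replicate 1 or 2 and 2 without knockdown replicate 3, and the 4 lower were 2 without knockdown replicate 2. RASSF1, a scaffold that binds STK3 and STK4, had a log2 fold change of -0.44 (SE 0.035, adjusted p = 6.4e-05, edgeR) and the polarity gene DLG1 -0.27 (SE 0.039, adjusted p = 0.0010). Other polarity genes went the other way, SCRIB at 0.19 (SE 0.045, adjusted p = 0.013) and LLGL1 at 0.14 (SE 0.042, adjusted p = 0.038, edgeR). SCRIB and LLGL1, both called higher, were named after their values were seen. The polarity genes MPP5, PATJ and PARD3 were not called. AMOTL1, a relative of AMOTL2, had -0.23 (SE 0.062, adjusted p = 0.024), lost without control replicate 1 or 3 or knockdown replicate 2 or 3 (adjusted p between 0.070 and 0.10). AMOTL1 also lost the call with library size alone (0.074), with no filter (0.073), with limma on FPKM (0.092 and 0.094) and without control replicate 1 and knockdown replicate 3 together, where its log2 fold change was -0.16 (adjusted p = 0.18). The protocadherin FAT4 (0.47, SE 0.12, adjusted p = 0.018) and WWC3 (0.44, SE 0.12, adjusted p = 0.022), a relative of the gene of the scaffold KIBRA, were called higher, all by edgeR. Both lost the call without control replicate 2 or 3 and without knockdown replicate 1 or 2, and WWC3 without knockdown replicate 3 too (adjusted p between 0.056 and 0.087 for WWC3 and between 0.062 and 0.077 for FAT4). With no filter both lost it as well (adjusted p = 0.059 for FAT4 and 0.054 for WWC3). AMOT, CRB3 and RASSF6 were below the filter.

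Of the 11 genes for retention and turnover of YAP and TAZ, 3 (27.3%) fell, beside 12.4% of all tested genes, and none rose, with a median of -0.07. YWHAG, which encodes a protein that holds phosphorylated YAP in the cytoplasm, stood at -0.25 on the log2 scale (SE 0.029, adjusted p = 0.00036, edgeR). The kinase CSNK1D (-0.24, SE 0.039) and the ubiquitin ligase subunit FBXW11 (-0.20, SE 0.035), which mark YAP and TAZ for degradation, also fell. The relatives of YWHAG in the list (YWHAB, YWHAE, YWHAH, YWHAQ, YWHAZ and SFN) were not called. Neither were CSNK1E (-0.11, adjusted p = 0.055) and BTRC (-0.07, adjusted p = 0.57, edgeR), the paralogues of CSNK1D and FBXW11. VGLL4, which competes with YAP for TEAD proteins, had 178, 176 and 162 CPM in the controls and 127, 128 and 128 CPM after knockdown. The knockdown libraries of VGLL4 were all below the controls, with a log2 fold change of -0.43 (SE 0.041, adjusted p = 0.00015, edgeR), and the call held in 18 of 18 other settings. VGLL3, another TEAD cofactor, had 0.06 (SE 0.053, adjusted p = 0.51, edgeR), and between 0.020 and 0.11 leaving out each library, without passing. VGLL1 and VGLL2 were not analysed here.

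The 19 target genes of YAP, TAZ and TEAD that were listed beside the 10 genes did not move one way, with 3 (15.8%) called lower and 4 (21.1%) higher, beside 12.4% and 10.4% of all tested genes, and a median of 0.09. The 3 lower were 1 without control replicate 1 or 2 or knockdown replicate 2 or 3. CCN1, a matricellular protein and a classic target, had 25.9, 26.8 and 25.5 CPM in the controls and 23.0, 19.8 and 21.9 CPM after knockdown. The groups did not overlap, and the log2 fold change of CCN1 was -0.27 (SE 0.074, adjusted p = 0.025, edgeR). The call of CCN1 was lost without control replicate 1 (adjusted p = 0.054) or 2 (0.077), without knockdown replicate 2 (0.093) or 3 (0.052), without control replicate 1 and knockdown replicate 3 together (0.091) and under scaling by total count alone (0.063). CCN2, with 3 GGAATG cores in the window printed above, was low, at 125, 62 and 150 counts in the controls and 114, 100 and 67 after knockdown. The CCN2 groups overlapped, with a log2 fold change of -0.42 (SE 0.35, adjusted p = 0.45, edgeR; 95% interval -1.19 to 0.36). The value for CCN2 was -0.72 without control replicate 2, -0.14 without control replicate 3, -0.22 without knockdown replicate 3 and -0.13 without control replicate 1 and knockdown replicate 3 together, and passed in none of these.

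The target genes called higher were CCDC80, FJX1, ARHGEF17 and NT5E. CCDC80, a matrix protein gene, had 20.4, 18.5 and 17.8 CPM in the controls and 28.4, 29.1 and 25.3 CPM after knockdown, a log2 fold change of 0.55 (SE 0.084, adjusted p = 0.0015, edgeR). FJX1, which encodes a kinase of the Four-jointed family, had 0.49 (SE 0.091, adjusted p = 0.0041), and ARHGEF17 had 0.47 (SE 0.075, adjusted p = 0.0020), by edgeR. The ectonucleotidase gene NT5E also had 0.47 (SE 0.13, adjusted p = 0.025), which was lost without control replicate 2 or 3 or knockdown replicate 1 or 2 (adjusted p between 0.067 and 0.092) and with no filter (0.092). FOXF2, a forkhead factor gene, had -0.37 (SE 0.080, adjusted p = 0.0093, edgeR). FOXF2 was called lower with CCN1 and ASAP1, the last named after its value was seen.

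**Figure D5:**
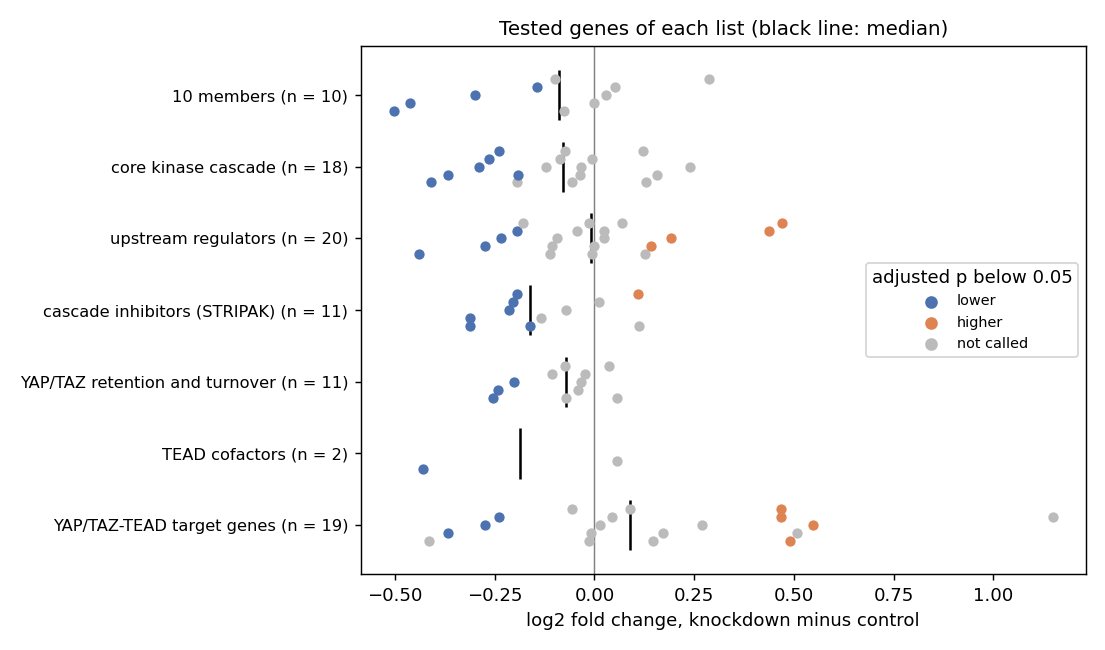
Log2 fold change, knockdown minus control (horizontal axis), of each tested gene in the 10 members and the 6 lists (rows), coloured blue where called lower, orange where called higher and grey where not called, with the median as a black line. The core kinase, STRIPAK and retention rows have medians below 0, and the target genes have a median of 0.09 with called genes on both sides.

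The table's own annotation assigns 150 genes to the KEGG Hippo signaling pathway, a set looked at after the data were seen. Of 123 tested, 29 (23.6%) were called lower and 17 (13.8%) higher, beside 12.4% and 10.4% of all tested genes, with a median log2 fold change of -0.02, and the set holds 8 of the 10 genes. Of its genes outside the 10 and the 6 lists, 84 were tested, with 16 (19.0%) lower and 14 (16.7%) higher, against the same 12.4% and 10.4%.

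The genes whose log2 CPM followed YAP1 most closely over the 6 libraries were PITPNM2 (Pearson r = 0.9975), IKZF5 (0.9958) and MTATP6P1 (0.9957), among 250 tested genes with r above 0.95. Those closest to WWTR1, the Hippo gene with the smallest p, were SQSTM1 (0.9996), which encodes the autophagy receptor p62, the keratin gene KRT7 (0.9992) and RBMX (0.9989), an RNA-binding protein gene, among 909 with r above 0.95. These likenesses rest on 6 libraries in 2 groups, so the difference between the groups enters r, and how much of r it makes up was not tested. KRT7 went from 1563 ± 27.4 to 1123 ± 19.0 CPM, a log2 fold change of -0.48 beside -0.50 for WWTR1.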

How the data were processed

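RNA-seq of LM3 cells was analysed in 3 control and 3 ZNF706 knockdown libraries. Per the submitters' processing notes, reads were trimmed with cutadapt 1.9 and checked with FastQC, and the build was GRCh38. The study mapped reads with HISAT2, and the counting program, its handling of strand and the annotation release are not given in the sources used here. The authors deposited whole-number counts per gene, without normalization, and FPKM values, which they divided by gene length and library size and gave to 2 decimals. Gene ontology and KEGG columns came with the same table. The table has no columns of the study's own comparisons.

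The test was edgeR 4.0.16 (R 4.3.3), its quasi-likelihood fit (glmQLFit, then glmQLFTest) on TMM-scaled counts that passed filterByExpr, with a term for the group and Benjamini-Hochberg adjustment over 18390 of 33007 genes. Changes of CPM are differences between groups, and levels between genes are compared as FPKM. The 95% intervals use the model's t quantile and cover these libraries' spread. Shares and sums of FPKM were compared with two-sided exact permutation tests, where 0.1 is the smallest p. Replicates differed from each other by more than sampling noise (chi-square per gene between 12.63 and 21.95 within groups and between 45.75 and 53.73 across them), so each was counted. The fit was tested on simulated data.

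The 10 genes, the lists and their tests were chosen with earlier results of these data known. Named were the 10 genes, ZNF706, STK3, STK4, SAV1, MOB1A, MOB1B, NF2, the VGLL genes, CCN1 and CCN2, up to 5 genes per list with the largest change among those called without overlap, and the 3 genes closest to YAP1 and WWTR1. The KEGG set, the 2-library omission, the TMM scaling of FPKM sums, the overlap in FPKM and the GC correction were chosen after seeing the data. So was the search for genes with the zeros of ANKRD1. Alternatives were DESeq2 1.42.0 (the study's tool), its size factors in edgeR, library size alone, omission of the filter, a filter at a mean count of 50, thinning to the smallest total, limma 3.58.1 on log2(FPKM + 0.1) and log2(FPKM + 1), the replicate number as a block, each library left out, and the study's criteria (unadjusted p below 0.05 and log2 fold change of at least 0.3).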

Additional observations from a re-analysis of the deposited data

How the results depend on the processing

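WWTR1, LATS2 and AMOTL2 kept their direction and call in all 18 other settings, while LATS1 and TEAD1 kept their direction without a call in each. The number of the 10 genes called lower was 4 in 10 settings and 3 in 8. YAP1 was the gene that dropped out, including under limma on log2(FPKM + 0.1) and log2(FPKM + 1) (adjusted p = 0.073 and 0.072) and under the study's criteria, where its change was below the fold threshold. The number called higher was 0 in all but the setting without control replicate 2, where TEAD3 made it 1 (leave-one-out range 0 to 1). The sign of TEAD2 turned to 0.0050 with DESeq2, 0.053 with library size alone, 0.0047 at a mean count of at least 50, 0.0055 after thinning, 0.048 and 0.036 with limma on log2(FPKM + 0.1) and log2(FPKM + 1), 0.040 without control replicate 2 and 0.054 without knockdown replicate 2 (leave-one-out range -0.041 to 0.054). TEAD4 turned to -0.015 with the GC trend removed, and ANKRD1 to 0.014 after thinning, 0.59 without control replicate 2, 0.11 without control replicate 3 and 0.51 without knockdown replicate 3 (leave-one-out range -0.66 to 0.59). These causes were not tested, and each value was smaller than its SE.

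Over all genes, 4192 were called, and leaving out each library gave 2648 to 3424 (2648 without knockdown replicate 2), from fewer samples. Of these 1906 were higher, against 1253 with no filter, 1189 without control replicate 1 and knockdown replicate 3, and 1148 (without knockdown replicate 2) to 1485 leaving out each library. The 2286 lower became 1081 under the study's criteria (beside 1767 higher), 1518 with library size alone and 1500 (without knockdown replicate 2) to 1939 leaving out each library. Over the 6 lists the 23 genes lower became 7 under the study's criteria (beside 6 higher) and 15 with library size alone. They became 15 without control replicate 1 and knockdown replicate 3, and 17 to 21 leaving out each library. The 9 higher became 13 with library size alone, beside 2742 over all genes, and 4 with no filter, beside 1253. Leaving out each library gave 4 to 8 higher (4 without control replicate 2 or 3 or knockdown replicate 1 or 2). With library size alone and under the study's criteria, 80 list genes were tested among 18390 genes. With no filter, 83 were tested among 31319.

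Replicate numbers did not pair the libraries (correlations of same-numbered deviations 0.049, -0.00051 and 0.092), and the fit with the replicate block called 4361 genes and the same number of the 10 genes lower, 4. In it the log2 fold change of YAP1 was -0.14 with an adjusted p of 0.021.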
